A study of Mus musculus with 6 samples.

Results

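Cancer-associated fibroblasts (CAFs), the fibroblasts of a tumour, were described here through 30 genes of the cell cycle. The genes were taken by symbol from a list of replication and mitosis genes, on the condition that CPM, the read count per gene scaled to library size, averaged 1 or more over the libraries. All 30 met it, out of 13590 genes tested and 55401 in the table, and 11 were set as S phase genes and 19 as mitotic genes. The CAFs came from tumours that grew after mouse tumour organoids had been injected into the rectum of Thbs2KO or WT host mice, and they were cultured on fibronectin in medium with serum before RNA was taken. There were 3 Thbs2KO and 3 WT libraries. The Thbs2KO hosts are labelled as knockouts of Thbs2, the gene of the secreted matrix protein thrombospondin-2. The labels give neither the allele, strain and age of the hosts nor the genotype of the organoids, and they do not say whether replicates are separate mice or cultures. The spread behind each p-value is thus that of these 6 libraries and may be technical.

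The 6 libraries held 19649066 to 20860335 expected counts in Thbs2KO and 23061568 to 24417464 in WT, and each of the 30 genes had between 432 and 6319 counts in every library. Thbs2 stood at 538.2, 424.7 and 412 CPM in the Thbs2KO libraries, against 2327, 4166 and 3705 CPM in the WT libraries (log2 fold change -2.89, SE 0.246, adjusted p = 0.00521 in the quasi-likelihood test of edgeR with Benjamini-Hochberg adjustment). All 12 fibroblast markers passed the filter on low counts, led by Col1a1 with a mean of 12625 CPM. Of the 10 epithelial markers 7 passed the filter, with 3 (Vil1, Cdx2 and Muc2) under it. These 7 summed to between 12.3 and 17.7 CPM in Thbs2KO and between 23.7 and 33.2 CPM in WT. Of the 8 immune markers only 3 passed, Cd68, Csf1r and Lyz2, and Cd3e had 0 counts in every library. These 3 summed to between 2.10 and 8.21 CPM in Thbs2KO and between 3.68 and 13.6 CPM in WT. Of the 6 endothelial markers only 2 passed the filter, Kdr and Tek, while Pecam1, Cdh5, Vwf and Cldn5 were under it. Kdr and Tek summed to between 31.2 and 49.8 CPM in Thbs2KO and between 11.4 and 31.2 CPM in WT. Of the 7 pericyte and smooth muscle markers 6 passed, all but Rgs5, led by Cspg4 with a mean of 105 CPM. These 6 summed to between 203 and 304 CPM in Thbs2KO and between 103 and 436 CPM in WT. The first principal component of all tested genes, with 46% of the variance, placed the Thbs2KO libraries between -45.87 and -17.87 and the WT libraries between 11.19 and 39.8. Thbs2KO replicate 3 and WT replicate 1 stood apart on the second, with 27.9% of the variance, which placed them at -16.3 and -44.88 and every other library above 0. The closest pair was Thbs2KO replicate 1 with Thbs2KO replicate 2: a chi-square test of their counts gave 3.78 per degree of freedom, where every other pair gave 15.6 to 121.8.

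A dividing cell copies its DNA in S phase and separates the copies in mitosis, and the genes for the 2 steps are switched on in turn. E2F factors raise the genes of DNA replication towards S phase, among them the MCM helicase subunits, the clamp PCNA and enzymes that make nucleotides. The genes of mitosis follow, driven through CCAAT boxes and a promoter element called the cell cycle homology region by NF-Y, B-MYB and FOXM1. Resting cells hold both sets down, and the summed level of such genes in bulk RNA is widely read as a measure of how much of a culture is cycling.

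Apart from E2f1, which was nearly flat, the 30 genes moved together from library to library, and no difference between genotypes passed the test. The summed level of all 30 was 2744, 2823 and 1676 CPM in Thbs2KO replicates 1, 2 and 3. It was 2006, 2598 and 2816 CPM in WT replicates 1, 2 and 3. Thbs2KO replicate 3 was the lowest of all 6 and WT replicate 1 the next, while the other 4 libraries lay close together, so the groups overlap. The mean sum was 2414 ± 640.5 CPM in Thbs2KO and 2473 ± 419 CPM in WT (SD, n = 3 each). In bulk RNA, fewer cycling cells and less transcript per cycling cell cannot be told apart. The 12 fibroblast markers summed to 37910, 36524 and 54573 CPM in Thbs2KO replicates 1, 2 and 3, and to 42866, 36480 and 40302 CPM in WT replicates 1, 2 and 3, highest in the Thbs2KO library with the lowest cell cycle level. Of the 12, 8 were highest of all 6 libraries in Thbs2KO replicate 3, among them Col3a1, Dcn and Postn, while Vim and S100a4 were lowest there and Col1a1 was highest in WT replicate 3. Their part in the pattern was not tested.

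Gene by gene the order was nearly uniform. Thbs2KO replicate 3 was the lowest Thbs2KO library in 30 of 30 genes, and WT replicate 1 the lowest WT library in 29 of 30, with E2f1 as the exception. Both held in 29 genes (96.7%), against 24.7% of all 13590 tested genes and 30.2% of the 5216 tested genes whose mean CPM lay in the range of the 30. Thbs2KO replicate 3 was the lowest of all 6 libraries in 29 genes, and WT replicate 1 in the remaining 1, Tyms. At the high end, Thbs2KO replicate 2 led the Thbs2KO libraries in 22 genes and replicate 1 in 8, while WT replicate 3 led the WT libraries in 29 and WT replicate 2 in 1, Birc5. The genes lie on 16 chromosomes.

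**Figure D1:**
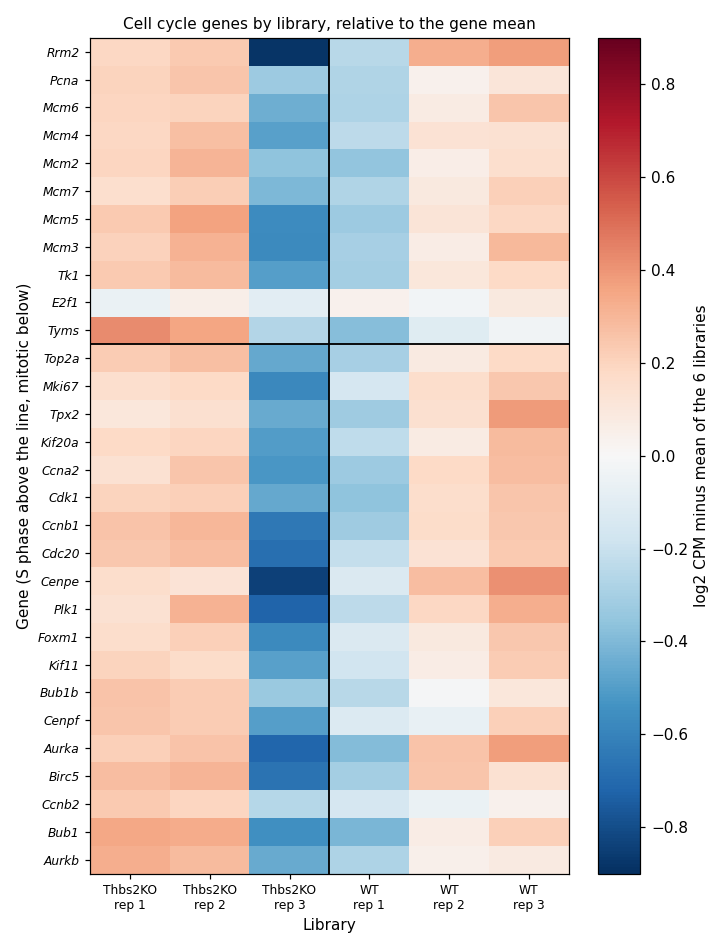
Each row is 1 of the 30 genes and each column 1 library, Thbs2KO on the left and WT on the right. Colour gives log2 CPM minus the mean of the 6 libraries for that gene. Thbs2KO replicate 3 is the lowest column in 29 genes and WT replicate 1 is the lowest WT column in 29, whereas the row of E2f1 is nearly flat.

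The 2 transcription factors of the list differed in how much they varied. E2f1 (chromosome 2, 154559407 to 154569892, minus strand, GRCm38), an activator of the replication genes, measured 35.2, 38.0 and 34.3 CPM in Thbs2KO against 37.7, 36.0 and 38.9 CPM in WT. Its 6 values lay within a narrow band, with a highest to lowest ratio of 1.11 in Thbs2KO and 1.08 in WT, the smallest among the 30 in both genotypes. Foxm1, an activator of G2 and mitotic genes, measured 72.4, 75.4 and 43.7 CPM in Thbs2KO against 59.3, 68.8 and 76.6 CPM in WT, and so followed the common order.

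The genes of the replication fork came next. Mcm2 to Mcm7 encode the 6 subunits of the helicase that unwinds DNA. Mcm6, the most abundant of them in CPM, measured 110.7, 111 and 71.3 CPM in Thbs2KO against 79.8, 101.8 and 115 CPM in WT. Mcm5, the subunit with the widest spread in Thbs2KO, measured 80.7, 88.0 and 46.2 CPM in Thbs2KO against 54.6, 74.2 and 78.0 CPM in WT. In both genes Thbs2KO replicate 3 was lowest and the groups overlapped. Mcm2 stood at 93.1, 100.4 and 63.4 CPM in Thbs2KO and 63.6, 84.7 and 90.5 CPM in WT. Mcm3 stood at 76.2, 81.9 and 44.4 CPM in Thbs2KO and 53.6, 69.1 and 80.7 CPM in WT. The same 2 libraries were low in each. Mcm4 stood at 94.0, 99.4 and 58.8 CPM in Thbs2KO and 70.1, 90.2 and 90.8 CPM in WT, and Mcm7 stood at 85.7, 89.9 and 58.2 CPM in Thbs2KO and 63.8, 82.0 and 89.6 CPM in WT. The log2 fold changes of the 6 subunits lay between -0.02 and 0.11. Pcna, the sliding clamp that holds DNA polymerase on its template, measured 126.6, 131 and 87.7 CPM in Thbs2KO against 91.6, 113 and 119 CPM in WT. Per kilobase of exon it had the highest mean level of the 30, 46.5 CPM per kb.

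The next enzymes supply or salvage the nucleotides for replication, and they hold both the widest spread and the largest fold change of the S phase set. Rrm2, the regulated subunit of ribonucleotide reductase, measured 127.5, 132 and 60.7 CPM in Thbs2KO against 94.3, 141 and 146 CPM in WT. Its highest to lowest ratio of 2.18 in Thbs2KO was the largest among the 30. Tyms (chromosome 5, 30058202 to 30073617, minus strand), thymidylate synthase, measured 46.2, 44.0 and 28.6 CPM in Thbs2KO against 26.3, 31.8 and 33.7 CPM in WT. Thbs2KO replicates 1 and 2 lay above every WT library and replicate 3 lay inside the WT range. Tk1, thymidine kinase, measured 42.8, 44.1 and 25.7 CPM in Thbs2KO against 29.4, 38.9 and 41.0 CPM in WT.

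Cdk1 is the kinase that starts mitosis, and cyclins A2, B1 and B2 are its partners. Cdk1 measured 98.2, 98.7 and 62.0 CPM in Thbs2KO against 66.3, 95.1 and 101 CPM in WT. Ccnb1 measured 94.1, 96.6 and 50.4 CPM in Thbs2KO against 63.1, 88.3 and 93.2 CPM in WT. Both showed the common order. Ccna2 measured 105.8, 114 and 66.9 CPM in Thbs2KO against 76.6, 109 and 117 CPM in WT. Ccnb2 measured 47.6, 46.2 and 33.8 CPM in Thbs2KO against 36.4, 38.9 and 41.5 CPM in WT. Ccnb2 had the smallest ratios of the mitotic set, 1.41 in Thbs2KO and 1.14 in WT.

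Among the mitotic kinases, Plk1, which acts from mitotic entry to exit, measured 73.1, 82.6 and 40.3 CPM in Thbs2KO against 56.5, 75.6 and 83.5 CPM in WT. Aurka, the kinase of the spindle poles, measured 50.4, 51.8 and 26.4 CPM in Thbs2KO against 33.0, 51.9 and 56.5 CPM in WT. These 2 were among the genes that varied most, with ratios of 2.05 and 1.97 in Thbs2KO and of 1.48 and 1.71 in WT. Aurkb, the kinase of the chromosomal passenger complex, measured 36.3, 35.3 and 21.1 CPM in Thbs2KO against 23.9, 29.97 and 30.6 CPM in WT. Birc5 (survivin), a subunit of the same complex, measured 48.4, 49.5 and 25.2 CPM in Thbs2KO against 32.2, 47.5 and 43.9 CPM in WT. Aurkb and Birc5 shared the low libraries of the other genes.

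Bub1 and Bub1b belong to the spindle checkpoint, which delays the separation of chromosomes, and Cdc20 activates the ubiquitin ligase that ends the delay. Bub1 measured 47.2, 46.8 and 25.3 CPM in Thbs2KO against 27.9, 39.0 and 43.2 CPM in WT. Bub1b measured 67.6, 66.1 and 44.9 CPM in Thbs2KO against 47.5, 56.1 and 60.6 CPM in WT. Cdc20 measured 90.6, 92.5 and 47.7 CPM in Thbs2KO against 66.0, 83.9 and 90.1 CPM in WT. The checkpoint genes and the gene of their target were thus low in the same 2 libraries.

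Another group encodes spindle and kinetochore proteins. Cenpe (chromosome 3, 135212537 to 135273611, plus strand), a kinetochore motor, measured 82.1, 79.9 and 41.0 CPM in Thbs2KO against 67.2, 89.2 and 97.7 CPM in WT. Cenpf, another kinetochore protein, measured 64.6, 63.7 and 38.5 CPM in Thbs2KO against 49.9, 51.8 and 63.3 CPM in WT. Cenpe in Thbs2KO replicates 1 and 2 lay between WT replicates 1 and 2, whereas Cenpf in those libraries lay just above every WT library. Tpx2, which builds spindle microtubules, measured 136.9, 140.5 and 93.1 CPM in Thbs2KO against 101.9, 141 and 166 CPM in WT. Kif11, the motor that pushes the spindle poles apart, measured 69.9, 68.4 and 43.4 CPM in Thbs2KO against 54.2, 64.0 and 71.5 CPM in WT. Tpx2 was the only 1 of the 30 genes with a larger highest to lowest ratio in WT (1.63) than in Thbs2KO (1.51). Kif20a, a motor of cytokinesis, measured 120.4, 122 and 75.1 CPM in Thbs2KO against 91.0, 112 and 130.1 CPM in WT.

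Mki67 encodes the Ki-67 protein that coats mitotic chromosomes, and Top2a the topoisomerase that untangles them. Mki67 (chromosome 7, 135689784 to 135716361, minus strand) measured 246, 251 and 148 CPM in Thbs2KO against 199, 247 and 262 CPM in WT. Top2a (chromosome 11, 98992943 to 99024189, minus strand) measured 274, 281 and 170.1 CPM in Thbs2KO against 189.7, 247 and 265 CPM in WT. These were the 2 highest genes of the list in CPM, and each had Thbs2KO replicate 3 at the bottom, below every WT library. Per kilobase of exon, Rrm2 (42.2), Cdc20 (42.0) and Plk1 (31.2 CPM per kb) followed Pcna, and Cenpf was lowest with 3.58 CPM per kb. The length used was the union of all annotated exons of a gene. It can exceed that of the transcripts expressed, so levels of different genes compare only roughly.

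To show what the promoters of the 2 sets share beyond their levels, 6 promoters are printed, those of the 3 mitotic and the 3 S phase genes highest in CPM that met the selection rule. Each line gives the 250 bases before the RefSeq transcription start, 5′ to 3′ on the gene's strand (GRCm38.p6). Capitals mark matches on either strand to the CCAAT box (CCAAT, or ATTGG on the other strand), to the core of the cell cycle homology region (TTTGAA, or TTCAAA on the other strand) and to the E2F cores TTGGCGC or TTCGCGC. In Mcm6 each capital run of 10 bases holds 2 E2F cores that overlap, 1 on each strand.
Top2a promoter (chr11:99024190-99024439, minus strand): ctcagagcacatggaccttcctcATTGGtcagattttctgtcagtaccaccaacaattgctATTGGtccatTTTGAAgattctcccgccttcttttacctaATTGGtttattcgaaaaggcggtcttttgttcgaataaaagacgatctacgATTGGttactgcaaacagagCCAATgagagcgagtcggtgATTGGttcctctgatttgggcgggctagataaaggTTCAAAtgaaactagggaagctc
Mki67 promoter (chr7:135716380-135716629, minus strand): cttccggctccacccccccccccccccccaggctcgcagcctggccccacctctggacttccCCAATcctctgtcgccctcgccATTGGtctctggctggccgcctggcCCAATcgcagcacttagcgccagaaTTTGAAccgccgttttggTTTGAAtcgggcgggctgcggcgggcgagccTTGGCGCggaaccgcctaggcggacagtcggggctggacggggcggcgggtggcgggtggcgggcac
Cdk1 promoter (chr10:69352913-69353162, minus strand): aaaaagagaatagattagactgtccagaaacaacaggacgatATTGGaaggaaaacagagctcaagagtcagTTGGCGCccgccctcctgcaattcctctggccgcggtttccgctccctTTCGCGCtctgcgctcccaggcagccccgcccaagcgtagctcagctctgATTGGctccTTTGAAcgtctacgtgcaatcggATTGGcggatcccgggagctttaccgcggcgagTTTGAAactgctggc
Rrm2 promoter (chr12:24708004-24708253, plus strand): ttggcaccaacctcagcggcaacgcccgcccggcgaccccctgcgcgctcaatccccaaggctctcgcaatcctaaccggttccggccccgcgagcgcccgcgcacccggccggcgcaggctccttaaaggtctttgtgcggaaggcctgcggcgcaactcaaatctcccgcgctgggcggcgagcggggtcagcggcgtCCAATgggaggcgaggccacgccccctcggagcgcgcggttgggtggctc
Mcm6 promoter (chr1:128359706-128359955, minus strand): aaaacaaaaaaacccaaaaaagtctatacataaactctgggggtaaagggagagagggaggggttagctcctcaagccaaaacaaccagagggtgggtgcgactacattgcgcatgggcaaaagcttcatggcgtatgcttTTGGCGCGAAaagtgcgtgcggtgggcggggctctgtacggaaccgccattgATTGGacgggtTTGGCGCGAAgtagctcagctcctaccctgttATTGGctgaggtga
Mcm2 promoter (chr6:88898781-88899030, minus strand): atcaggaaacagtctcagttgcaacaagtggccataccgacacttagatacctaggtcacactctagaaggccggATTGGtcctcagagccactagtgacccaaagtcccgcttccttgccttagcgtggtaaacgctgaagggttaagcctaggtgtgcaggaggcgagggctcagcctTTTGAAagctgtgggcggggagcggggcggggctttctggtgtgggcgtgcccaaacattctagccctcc

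Promoters of 24 of the 30 genes were in the table, 14 mitotic and 10 S phase. TTTGAA occurred in 10 of 14 mitotic promoters (71.4%) and in 1 of 10 S phase promoters (10%), that of Mcm2, against 17.9% of all 32851 promoters in the table. The window searched ran from 250 bases before to 50 bases after the start. A gene was counted when any of its promoter entries matched, whereas the share of all promoters counts single entries. Mcm7 had matches in separate windows, and not each of those windows held an E2F core. CCAAT occurred in 13 of 14 mitotic promoters (92.9%), in 7 of 10 S phase promoters (70%) and in 37.4% of all promoters. An E2F core occurred in 4 of 10 S phase promoters (40%), those of Mcm3, Mcm5, Mcm6 and Mcm7, in 3 of 14 mitotic promoters (21.4%), those of Ccnb1, Cdk1 and Mki67, and in 3.89% of all promoters. Cdk1 and Mki67 thus held all 3 motifs, Top2a held 6 CCAAT boxes and 2 copies of TTTGAA, and Rrm2 held a single CCAAT box. No motif was found in the windows of E2f1, Tyms, Tk1 and Birc5. These are matches of letters, and no binding was measured.

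S phase and mitotic genes shifted to nearly the same degree from library to library. The mean log2 CPM of the 11 S phase genes, relative to the 6 libraries, was 0.20, 0.26 and -0.45 in Thbs2KO replicates 1, 2 and 3, and -0.27, 0.08 and 0.18 in WT replicates 1, 2 and 3. The same mean of the 19 mitotic genes was 0.21, 0.23 and -0.55 in Thbs2KO and -0.25, 0.12 and 0.24 in WT. Both sets put the libraries on one line, with Thbs2KO replicate 3 and WT replicate 1 at its low end. The difference between the sets, S phase minus mitotic, was -0.02, 0.02 and 0.10 in Thbs2KO and -0.01, -0.04 and -0.06 in WT, and the groups overlap because Thbs2KO replicate 1 lay below WT replicate 1. The highest difference, in Thbs2KO replicate 3, accompanied the lowest level of both sets. The mean difference was 0.07 higher in Thbs2KO than in WT on the log2 scale, with an SD over 3 libraries of 0.0604 in Thbs2KO and 0.0222 in WT. It was not tested.

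**Figure D2:**
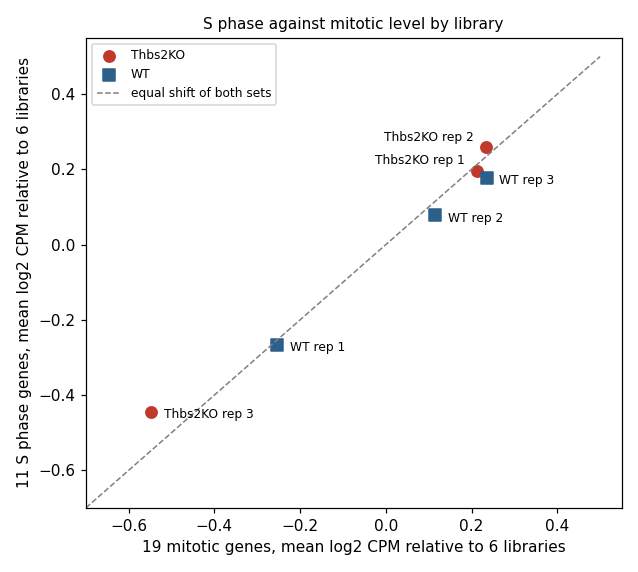
Each point is 1 library: the x axis gives the mean log2 CPM of 19 mitotic genes and the y axis that of 11 S phase genes, both relative to the mean of the 6 libraries. Circles are Thbs2KO and squares WT, and the dashed line marks an equal shift of both sets. The libraries lie along that line, from Thbs2KO replicate 3 (-0.55, -0.45) through WT replicate 1 (-0.25, -0.27) to the other 4.

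The spread within a genotype was wider than that of other genes. The median ratio of highest to lowest library was 1.69 in Thbs2KO and 1.41 in WT for the 30 genes, against 1.24 in Thbs2KO and 1.25 in WT for all tested genes. For the 5216 tested genes of the same CPM range it was 1.16 in both genotypes. In 29 of the 30 genes the ratio was larger in Thbs2KO than in WT, Tpx2 being the exception. S phase genes had ratios of 1.11 to 2.18 in Thbs2KO and 1.08 to 1.55 in WT, and mitotic genes had ratios of 1.41 to 2.05 in Thbs2KO and 1.14 to 1.71 in WT. On the log2 scale the median SD was 0.42 in Thbs2KO and 0.26 in WT, where all tested genes had 0.164 in both. The spread rested on 1 library of each genotype: without Thbs2KO replicate 3 the median SD of the other 2 Thbs2KO libraries was 0.0281, and without WT replicate 1 that of the other 2 WT libraries was 0.0766.

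**Figure D3:**
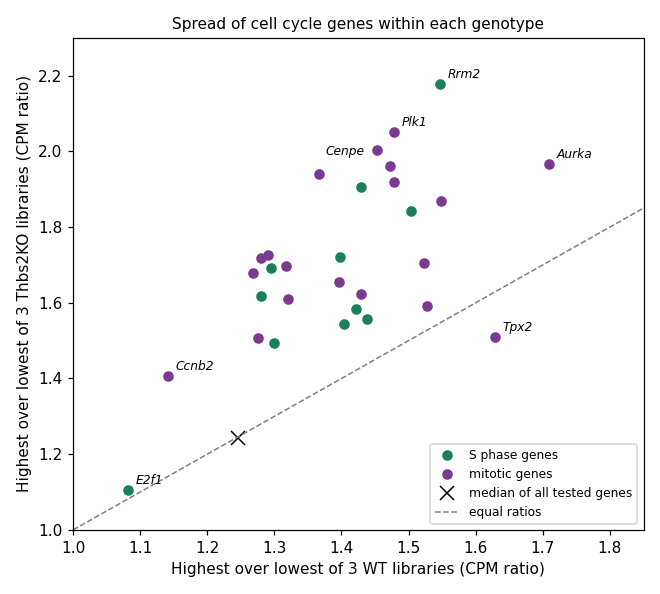
Each point is 1 gene: the x axis gives the highest over the lowest CPM of the 3 WT libraries and the y axis the same ratio of the 3 Thbs2KO libraries. Green points are S phase genes, purple points mitotic genes, the cross is the median of all tested genes and the dashed line marks equal ratios. Of the 30 genes 29 lie above the line, E2f1 lies near its lower end and Rrm2 reaches 2.18 on the y axis.

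Pairs of libraries were also compared. The median absolute log2 difference of the 30 genes was 0.710 between Thbs2KO replicates 3 and 1 and 0.748 between Thbs2KO replicates 3 and 2, where all tested genes had 0.229 and 0.246. Thbs2KO replicate 1 and WT replicate 3 differed by a median of 0.0898 in these genes, less than the 0.184 of all tested genes. That pair of opposite genotype was closer in these genes than the 2 Thbs2KO pairs that include replicate 3. Thbs2KO replicate 3 and WT replicate 1 differed by a median of 0.218, and the all-gene median for that pair was 0.202.

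Set against genotype, no member of the list passed the test. With edgeR's quasi-likelihood test adjusted over all 13590 genes, 0 of 30 genes were called at an adjusted p below 0.05, where 1.09% of all tested genes were called, 0.552% higher and 0.537% lower in Thbs2KO. Without adjustment 0 of 30 had p below 0.05, against 13.3% of all tested genes, and DESeq2 called 0 of 30, against 5.15% of the genes it tested. In 0 of 30 genes were the genotypes free of overlap, against 19.7% of all tested genes. The log2 fold change of Thbs2KO over WT was positive in 12 genes and negative in 18, with a median of -0.01, beside a median of -0.004 over all tested genes. The 11 S phase genes split 6 positive to 5 negative with a median of 0.01, and the 19 mitotic genes 6 positive to 13 negative with a median of -0.06.

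The intervals give how large a difference the test allows when the 3 libraries of a genotype are taken as independent. The labels do not say whether they are, and Thbs2KO replicates 1 and 2 were the closest pair of all. The 95% interval of the log2 fold change lay within 1 unit of 0, a doubling or halving, in 29 of 30 genes, and that of Rrm2 ran from -1.003 to 0.51. Tyms had the highest estimate, with 39.6 ± 9.61 CPM in Thbs2KO and 30.6 ± 3.82 CPM in WT (SD, n = 3 each; log2 fold change 0.37, SE 0.197, interval -0.10 to 0.85, edgeR adjusted p = 0.497). Cenpe had the lowest, with 67.7 ± 23.1 CPM in Thbs2KO and 84.7 ± 15.7 CPM in WT (log2 fold change -0.32, SE 0.279, edgeR adjusted p = 0.719). Neither difference passed the test. E2f1 had the narrowest interval, -0.25 to 0.12, around means of 35.8 ± 1.90 CPM in Thbs2KO and 37.5 ± 1.49 CPM in WT. Mki67 averaged 215 ± 58.1 CPM in Thbs2KO and 236 ± 32.9 CPM in WT (log2 fold change -0.13, interval -0.65 to 0.39, edgeR adjusted p = 0.875).

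The direction of the estimates changed with the library left out. The log2 fold change was positive in 6, 4 and 28 of the 30 genes without Thbs2KO replicate 1, 2 or 3, and in 4, 17 and 24 without WT replicate 1, 2 or 3, against 12 with all 6 libraries. With Thbs2KO replicate 3 and WT replicate 1, the low libraries in these genes, both left out, it was positive in 22 genes. In that fit 1 gene, Tyms, was called (log2 fold change 0.46, edgeR adjusted p = 0.00854), where 11.2% of all tested genes were called. The Thbs2KO libraries left in it were replicates 1 and 2, the closest pair of all. The median SD of the 30 genes was then 0.0281 in Thbs2KO and 0.0767 in WT, against 0.42 and 0.26 with all 6 libraries. Over all alternatives the adjusted p of Tyms ran from 0.00854 to 0.81. Stretches of Tyms transcript match 3 other tested protein-coding genes, Jakmip2 over 360 bases at 97.5% identity, Wdr59 over 358 bases at 96.4% and Map3k2 over 357 bases at 95.5%, so some reads of Tyms may be shared.

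**Figure D4:**
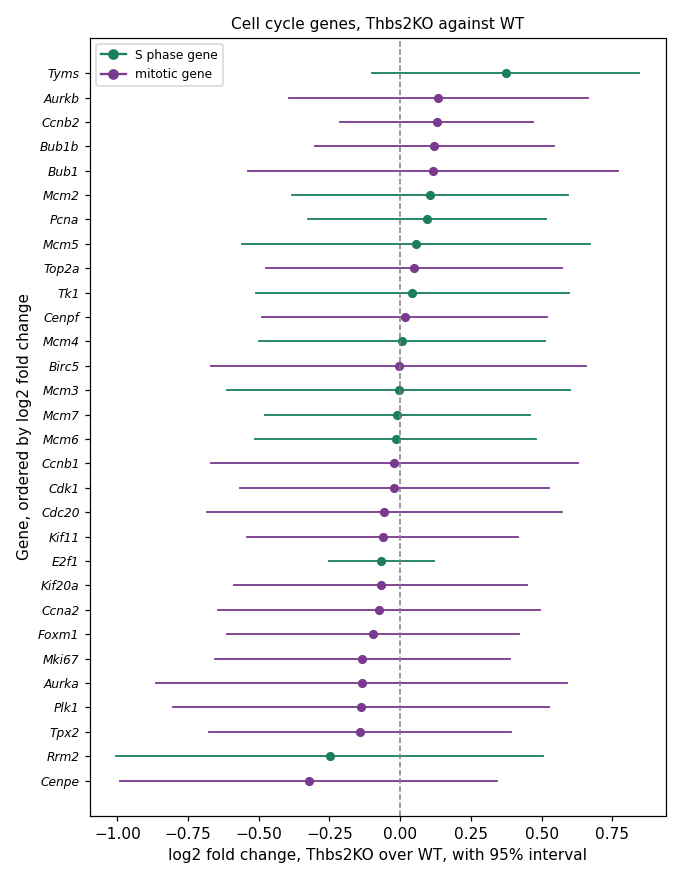
Each row is 1 gene, ordered by its log2 fold change of Thbs2KO over WT from edgeR, with the 95% interval as a line; green marks S phase genes and purple mitotic genes. Every interval crosses 0, and the estimates run from -0.32 for Cenpe to 0.37 for Tyms.

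Other genes of the same pathways were low in the same libraries. Of 50 further replication genes 47 (94%) and of 60 further mitotic genes 57 (95%) were lowest in Thbs2KO replicate 3 among Thbs2KO and in WT replicate 1 among WT. None of the 110 was called by edgeR at an adjusted p below 0.05 (1.09% of all tested genes), 1 had an unadjusted p below 0.05 (13.3% of all tested genes), and DESeq2 called 1 (5.15% of the genes it tested). The genotypes did not overlap in 4 of the 110, Dut, Rpa3, Ckap2 and Gtse1, against 19.7% of all tested genes. The median log2 fold change was 0.07 for the replication genes (34 positive, 16 negative) and 0.02 for the mitotic genes (34 positive, 26 negative). The 1 gene below 0.05 without adjustment was Dut, which removes dUTP so that uracil stays out of DNA. Dut measured 67.2, 72.5 and 69.9 CPM in Thbs2KO against 53.5, 60.9 and 50.5 CPM in WT. Its groups did not overlap and it did not share the common order. Its means were 69.9 ± 2.62 CPM in Thbs2KO and 54.96 ± 5.32 CPM in WT (SD, n = 3 each; log2 fold change 0.35, SE 0.0888, edgeR adjusted p = 0.148). DESeq2 called it at an adjusted p of 0.0389, within a range of 0.0389 to 0.446 over all alternatives.

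With Dut, the following genes were the 3 with the smallest p of each further list. All but Gtse1, lowest in WT replicate 2 among WT, had Thbs2KO replicate 3 and WT replicate 1 as their lowest libraries. Pold3, a subunit of DNA polymerase delta, measured 24.4, 25.3 and 17.5 CPM in Thbs2KO against 16.7, 17.2 and 19.5 CPM in WT (log2 fold change 0.33, edgeR adjusted p = 0.447). Rpa3, a subunit of the protein that coats single-stranded DNA, measured 15.4, 14.8 and 13.3 CPM in Thbs2KO against 12.2, 12.8 and 13.2 CPM in WT (log2 fold change 0.19, edgeR adjusted p = 0.513). In Rpa3 the groups did not overlap, by a small margin. Ckap2, a microtubule-associated protein, measured 47.6, 45.6 and 33.3 CPM in Thbs2KO against 48.3, 51.3 and 54.9 CPM in WT, below every WT library (log2 fold change -0.29, edgeR adjusted p = 0.466). Gtse1, a microtubule-binding protein, measured 40.3, 39.1 and 28.2 CPM in Thbs2KO against 42.4, 41.6 and 45.5 CPM in WT (log2 fold change -0.27, edgeR adjusted p = 0.509). Kif15, a spindle motor, measured 28.2, 27.6 and 16.3 CPM in Thbs2KO against 16.4, 19.5 and 20.7 CPM in WT (log2 fold change 0.35, edgeR adjusted p = 0.593). None of these differences passed the test.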

How the data were processed

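The authors deposited expected counts per gene, the reads per gene as RSEM estimates them, with no scaling between libraries. The submitters' processing notes name the tools Trimmomatic 0.39, STAR 2.7.3a and RSEM and the build mm10, and the annotation release is not given in the sources used here. Per the labels' protocols, libraries were made with a TruSeq v2 kit, which does not mark strand. RSEM divides reads that match several genes by an estimate, so near-identical copies share uncertainty, and without strand, reads in overlapping genes cannot be told apart. Exons of 8 members overlap another gene, in 5 cases a tested one (Ccna2, Cdc20, Kif20a, Mcm7 and Tk1). In 7 members at least 200 bases match another gene at 95% identity (BLAST 2.17.0), in 3 cases a tested one (Ccnb1, Pcna and Tyms). For Ccnb1 and Pcna the tested match is a pseudogene, with 1.17% and 1.14% of the member's mean count. For Tyms the tested matches are the protein-coding genes named above. Map3k2 had 170.5%, Wdr59 60.05% and Jakmip2 4.41% of the mean count of Tyms. Each shares a stretch with Tyms, and the number of reads shared was not measured.

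Counts were rounded to whole numbers, genes were filtered with filterByExpr and totals were scaled with TMM. Thbs2KO was compared with WT in edgeR 4.0.16 under R 4.3.3 (quasi-likelihood test, robust estimation, no term besides genotype), with Benjamini-Hochberg adjustment over 13590 genes and a threshold of 0.05. Log2 CPM used a prior count of 2, and errors marked ± are SD over 3 libraries. SE was the absolute log2 fold change over the square root of the test's F, and the 95% intervals were built from it. Depth was 19649066 to 24417464 expected counts per library. The fit was tested on simulated counts drawn for each gene independently, which lack the shared shift of the 30 genes between libraries. Members and lists were chosen with earlier results of these data known. Positions are those of GENCODE M21 on GRCm38, the build also called mm10, and promoters from RefSeq. The named genes were all 30 members, Thbs2 and the 3 with the smallest p of each further list. Promoters were printed for at most 3 genes of each set with a motif, by mean CPM, outside chromosomes not printed here. A window with more than 30 bases in an exon was passed over, a rule added after the data were seen that passed over Pcna. The alternatives were RLE scaling, upper-quartile scaling, DESeq2 1.42.0, voom in limma 3.58.1, other filters, no robust estimation, a replicate block, libraries left out and Thbs2KO replicates 1 and 2 summed. Python 3.11.15 and matplotlib 3.10.9 drew the figures.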

Additional observations from a re-analysis of the deposited data

How the results depend on the processing

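No member of the list was called in any alternative but 1. Without the 2 low libraries, Thbs2KO replicate 3 and WT replicate 1, Tyms was called, beside 11.2% of all tested genes. Over all tested genes 148 were called, against 699 with DESeq2, 245 with no filter, 40 with Thbs2KO replicates 1 and 2 summed, 1519 with both low libraries left out, and 38 to 397 with 1 library left out (for Thbs2KO, 38 without replicate 1 and 45 without replicate 2; for WT, 397 without replicate 1, 79 without replicate 2 and 49 without replicate 3). With the replicate number as a block 30 genes and 0 members were called and Thbs2 had a log2 fold change of -2.86 (edgeR adjusted p = 0.0784); the numbers were not shown to pair the libraries, since deviations of same-numbered libraries correlated at -0.292, 0.171 and -0.331, and Thbs2KO replicate 3 correlated best with WT replicate 1 (0.396). Among the 110 further pathway genes 0 were called, against 1.09% of all tested genes. DESeq2 called 1 of the 110, against 5.15% of the genes it tested. With both low libraries left out 6 of the 110 were called, against 11.2% of all tested genes. In that last fit Pold3 had a log2 fold change of 0.44 (edgeR adjusted p = 0.0295, 0.0295 to 0.765 over all alternatives). Kif15 had 0.48 there (edgeR adjusted p = 0.0128, 0.0128 to 0.857 over all alternatives). With 1 library left out, the median log2 fold change ran from -0.12 to 0.22 for S phase genes and from -0.18 to 0.17 for mitotic genes, and the difference between the sets from 0.04 to 0.10. The median SD within genotype ran from 0.0281 to 0.529 in Thbs2KO and from 0.0766 to 0.358 in WT, and was 0.0281 in Thbs2KO and 0.0767 in WT without both low libraries. Of 592 values of named genes under alternatives, 85 changed sign with no call on either side and 0 reversed a call. Among the named genes only Thbs2 was called with all 6 libraries, so there were few calls to reverse. The causes were not tested. Members had 432 or more counts in each library, and the SDs and ratios given here include counting error. The edgeR fit estimates the variation between the libraries of a genotype apart from counting error. Its median coefficient of variation was 0.201 for the 30 genes and 0.155 for all tested genes. For the tested genes of the same CPM range it was 0.114.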

Other observations

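Of the 110 further replication and mitosis genes, 6 did not have Thbs2KO replicate 3 and WT replicate 1 as their lowest libraries: Dut, Gins3, Gins4, Gtse1, Pttg1 and Psrc1, named after their values were seen. Psrc1, a microtubule-binding protein of the spindle, was the only 1 of them highest in both those libraries. It measured 27.4, 24.1 and 38.0 CPM in Thbs2KO replicates 1, 2 and 3, and 48.1, 20.9 and 23.3 CPM in WT replicates 1, 2 and 3 (log2 fold change -0.04, edgeR adjusted p = 0.978). Pttg1 (securin), which holds back the separation of sister chromatids, measured 9.17, 7.34 and 9.39 CPM in Thbs2KO and 8.61, 9.11 and 8.59 CPM in WT, lowest in Thbs2KO replicate 2 and WT replicate 3. Gins4, a subunit of the GINS complex that works with the MCM helicase, measured 22.2, 25.3 and 21.7 CPM in Thbs2KO and 25.8, 24.4 and 24.1 CPM in WT.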
